A study of Mus musculus with 4 samples.

Results

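The mRNAs described here code for the proteins of the mitochondrial ribosome. They were defined by name, with earlier results of these data known. The rule took the protein-coding genes of GENCODE M21 whose symbol begins with Mrpl or Mrps followed by a digit. Of 21951 protein-coding genes, 78 met that rule. Of these, 51 belong to the large subunit and 26 to the small subunit, with Mrps30 and Mrps18a counted in the large subunit, where their proteins sit. Mrps36 was kept apart, since its protein is known as a component of the α-ketoglutarate dehydrogenase complex. The genes lie on 17 chromosomes, and 0 lie on the X or Y chromosome.

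IGF2BP3 eCLIP-seq was performed on testes of wild type C57BL/6 mice aged 8 weeks, a tissue that holds germ cells and somatic cells together. The IGF2BP3 IP group was precipitated with an IGF2BP3 antibody (Abcam, #ab177942). The size-matched input group, SMInput, is RNA of the same lysate sequenced with no antibody, and it gives the background of each IP. There were 2 replicates with 1 IP and 1 SMInput library each, 4 samples in all, and the labels do not say which animals a replicate came from. A note on the design of the series speaks of anti-IgG and of 3 replicates, whereas the labels of the samples, which were followed here, give an input without antibody and 2.

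The mitochondrial ribosome translates the few mRNAs of the mitochondrial genome, which code for core subunits of the respiratory chain and ATP synthase. Its RNAs are made inside mitochondria, whereas all of its proteins are encoded in the nucleus, translated in the cytoplasm and imported. Male germ cells rely on mitochondrial energy production, and their mitochondria change shape and position as spermatocytes and spermatids develop. IGF2BP3 is a cytoplasmic RNA-binding protein, so the eCLIP-seq data bear on these mRNAs before their proteins reach the organelle.

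For every cluster, a stretch of the genome in which reads pile up, the authors' tables give a log2(fold change), the ratio of IP to SMInput reads after scaling each to its library, and a −log10(P value) for that ratio. A cluster with both values at 2 or more was counted as a significant peak, and it was given to a gene when its centre lay within the gene on the same strand. The library totals that these values imply were 5133438 reads for the IP and 8706391 for the SMInput of replicate 1. For replicate 2 the totals were 4637612 and 16696122, so the inputs differed more in depth than the IPs did. Among the significant peaks of the mitochondrial ribosomal protein genes, the fewest IP reads were 7 in replicate 1 and 4 in replicate 2.

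Markers of the cell types of the testis were looked up first. All 6 spermatid markers had clusters in both replicates, led by the protamine genes Prm1 and Prm2, whose deepest clusters held 358 and 426 SMInput reads in replicate 1 and 639 and 665 in replicate 2. The 4 spermatocyte, 4 spermatogonia, 4 Sertoli cell and 5 Leydig cell markers had clusters in both replicates as well, whereas Alb, Myh6 and Ins2, markers of liver, heart and pancreas, had 0. The libraries therefore carried RNA of germ cells and of somatic cells, as the label of the tissue says. In such bulk tissue, fewer cells of a type and less RNA per cell cannot be told apart, and a cluster does not tell which cell its RNA came from.

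Clusters were found in 76 of the 78 mitochondrial ribosomal protein genes in replicate 1 and in 70 in replicate 2. Over all 21951 protein-coding genes it was a smaller share, with 14051 and 12841 genes, and 12312 in both replicates. Of the 78, both replicates had clusters in 69 genes, and neither had any in Mrpl58, which codes for a peptidyl-tRNA hydrolase built into the large subunit. Significant peaks were found in 16 of the 76 genes in replicate 1, or 21.1% (95% Wilson interval 13.4% to 31.5%), against 40.8% of all 14051 protein-coding genes with a cluster. In replicate 2 they were found in 31 of 70 genes, or 44.3% (33.2% to 55.9%), against 62.8% of 12841. Both shares of these genes lay below the share over all genes, and in both replicates the interval excluded it. The Wilson intervals cover counting error alone.

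Significant peaks in both replicates were found in 7 genes, Mrpl4, Mrpl17, Mrpl20, Mrpl47, Mrps2, Mrps6 and Mrps28. These are 10.1% of the 69 genes with clusters in both, against 39.1% of all 12312 such genes. They make up 43.8% of the genes significant in replicate 1 and 22.6% of those significant in replicate 2, where the same shares over all protein-coding genes were 83.9% and 59.7%. A further 9 genes were significant in replicate 1 alone, 24 in replicate 2 alone and 38 in neither. The 38 include genes that had no cluster in a replicate, such as Mrpl58. Replicate 2 had more significant genes over all protein-coding genes too, 8068 against 5738, with 4814 significant in both. The count of 7 depended on how a peak was given to a gene and on the thresholds. It was 2 with both thresholds at 3 (2.90%, against 9.43% of all genes) and 4 when at least 10 IP reads were required (5.80% against 22.1%). It was 21 when each peak went to whichever gene start was nearest, strand ignored, and the distance from all genes was then smaller (30% against 36.8%).

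Overlap of significant peaks, with at least 1 base shared on the same strand, was rarer still. It was found in 4 genes, Mrpl4, Mrpl20, Mrps2 and Mrps6, which are 5.80% of 69, against 16.6% over all genes. With both thresholds at 3 the number was 0, against 4.91% over all genes. By the nearest gene start it was 9 (12.9% against 15.3%), with 2 of the 4 genes, Mrpl4 and Mrps2, among them. By peak, 5 of the 30 significant peaks of replicate 1, or 16.7%, overlapped one of replicate 2, against 32.9% of all peaks in protein-coding genes. In the other direction it was 5 of 53, or 9.43%, against 18.4%.

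**Figure D1:**
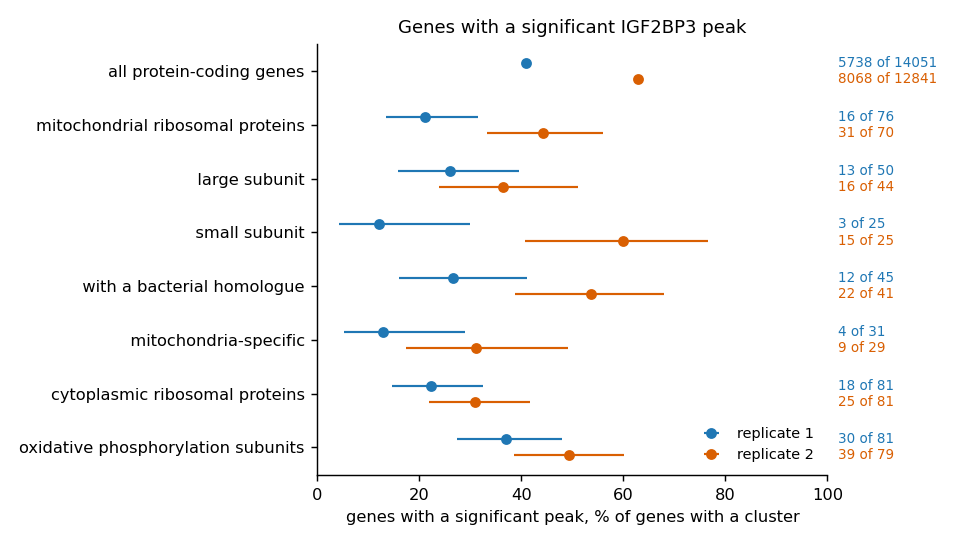
Share of genes with at least 1 significant IGF2BP3 peak among the genes with a cluster, in percent, for replicate 1 (blue) and replicate 2 (orange), with 95% Wilson intervals as bars and the counts at the right. The mitochondrial ribosomal protein genes lie at 21.1% and 44.3%, below the 40.8% and 62.8% of all protein-coding genes, and the subunits take opposite orders in the replicates.

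The mRNAs are short, and few clusters fell on each. Their median length was 1302 bases against 2543 over all protein-coding genes, the median coding sequence (CDS) 582 against 1173 bases, and the median 3′UTR 326.5 against 730.5 bases. A gene held a median of 6 clusters in replicate 1 and 4 in replicate 2, where all genes with a cluster held 12 and 9. Counted by cluster and not by gene, the distance from all genes was small. In replicate 1, 30 of 679 clusters were significant, or 4.42%, against 4.91% over all protein-coding genes. In replicate 2, 53 of 408 were significant, or 13.0% against 13.1%, so that by this count the mRNAs stood at the background. Among clusters in exons, 18 of 309 (5.83%) were significant in replicate 1 against 9.16%, and 30 of 238 (12.6%) in replicate 2 against 15.3%.

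Genes were therefore also compared within classes of cluster number. With 1 to 4 clusters, 2 of 29 mitochondrial ribosomal protein genes were significant in replicate 1 (6.90%) against 7.67% of all genes in that class, and 16 of 46 in replicate 2 (34.8%) against 28.7%. With 5 to 9 clusters the shares were 26.7% against 25.1% in replicate 1 and 53.3% against 58.9% in replicate 2. With 10 or more clusters, 6 of 17 genes were significant in replicate 1 (35.3%, 17.3% to 58.7%) against 60.0%, and 7 of 9 in replicate 2 (77.8%, 45.3% to 93.7%) against 85.4%. In every class but the last of replicate 1, the share of all genes fell inside the interval of these genes. How far gene length and cluster number account for the low share was not tested.

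The typical ratio was near that of other mRNAs. The median over genes of the median log2(fold change) of exonic clusters was 1.26 in replicate 1 and 1.48 in replicate 2, against 1.32 and 1.43 over all genes. The highest log2(fold change) of each gene had a median of 2.699 in replicate 1, with a range of 0.18 to 4.57, and of 2.59 in replicate 2, with a range of 0.43 to 4.66. Over all genes these medians were 3.08 and 3.43, but there the highest value is taken over more clusters. Within the classes of cluster number above, from few to many, the medians were 2.08, 2.62 and 3.08 in replicate 1 against 2.35, 2.76 and 3.29 over all genes, and 2.43, 2.43 and 3.85 in replicate 2 against 2.85, 3.43 and 3.66. Among exonic clusters with at least 20 IP and SMInput reads together, where a ratio is measured best, 3 of 27 were significant in replicate 1 (11.1%) against 18.2% over all genes, and 5 of 48 in replicate 2 (10.4%) against 17.3%. Both shares have wide intervals, 3.85% to 28.1% and 4.53% to 22.2%, which include the values over all genes.

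**Figure D2:**
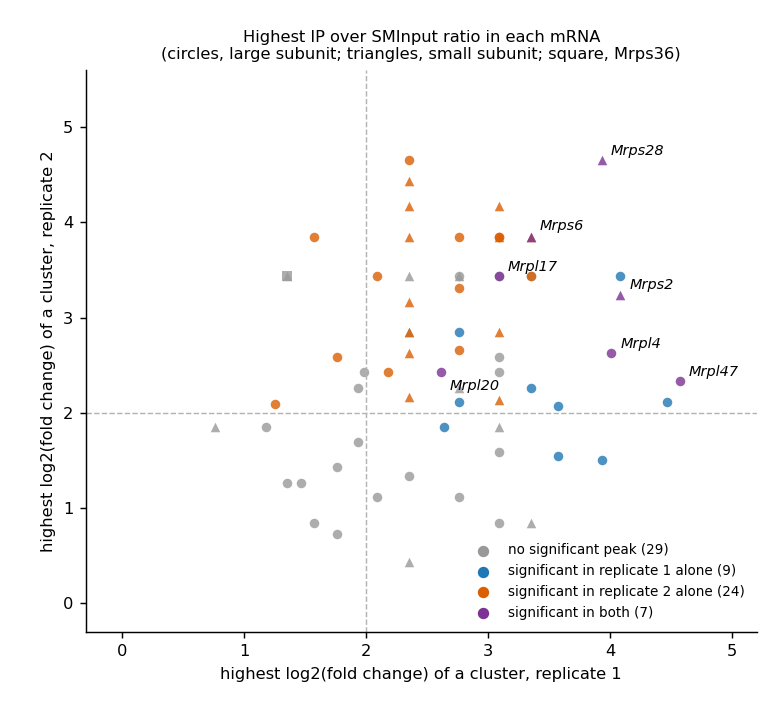
Highest log2(fold change) of any cluster in each mitochondrial ribosomal protein gene, replicate 1 on the horizontal and replicate 2 on the vertical axis, for the 69 genes with clusters in both; colours mark in which replicate a significant peak was found, and dashed lines mark the threshold of 2. Points coincide where genes share the same small read numbers, and many gray points lie beyond both lines because their −log10(P value) stayed under 2.

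Many genes without a significant peak still held a cluster past the fold threshold. This was the case for 40 of the 60 such genes in replicate 1 (66.7%, against 85.0% over all genes) and for 19 of 39 in replicate 2 (48.7% against 69.1%). In none of these clusters did the −log10(P value) reach 2. The remaining 20 genes in each replicate had no cluster at a log2(fold change) of 2.

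The peaks that did pass rested on few reads. In replicate 1 the 30 peaks had a median of 10 IP reads, from 7 to 34, against a median of 13 over all significant peaks, and 13 of them had 1 SMInput read. In replicate 2 the 53 peaks had a median of 7 IP reads, from 4 to 26, against 8 over all significant peaks. Of the 53, 39 had fewer than 10 IP reads (73.6%, against 61.9% of all significant peaks). The share under 10 IP reads in replicate 1 was 40%, against 29.01%. Few reads were thus common among all peaks of replicate 2, and somewhat more so among those of these genes. In replicate 2, 12 peaks consisted of 4 IP reads against 1 SMInput read, which gives a log2(fold change) of 3.85. How common such read numbers were among all significant peaks is not given here. The median log2(fold change) of the peaks was 3.15 in replicate 1 and 3.07 in replicate 2, beside 2.84 and 3.07 over all peaks.

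Most peaks had no cluster at the same place in the other replicate. Of the 30 peaks of replicate 1, 8 met a cluster of replicate 2 (26.7%, against 53.3% of all peaks), with a median log2(fold change) of 2.53 there against 2.37. Of the 53 peaks of replicate 2, 18 met a cluster of replicate 1 (34.0% against 41.6%), with a median of 2.18 against 2.08. Where a cluster was met, its ratio was thus near that found at the peaks of all genes.

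In the large subunit, 13 of 50 genes with a cluster were significant in replicate 1 (26.0%) and 16 of 44 in replicate 2 (36.4%), both below the 40.8% and 62.8% of all genes, and 4 were significant in both. Mrpl4 codes for a protein that lines the exit tunnel of the ribosome. Its overlapping peaks spanned the end of the CDS in exon 9, with their centres in the 3′UTR, at chr9:21008572-21008707 in replicate 1 and chr9:21008614-21008727 in replicate 2. The log2(fold change) was 4.01 (19 IP and 2 SMInput reads) in replicate 1 and 2.63 (12 and 7 reads) in replicate 2. The 94 shared bases were centred 25 bases beyond the last base of the CDS, and no other cluster of this gene was significant in either replicate.

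Mrpl20, whose bacterial relative acts early in the assembly of the large subunit, had overlapping peaks in exon 4 that crossed the end of the CDS, with their centres in the CDS. They lay at chr4:155808553-155808684 and chr4:155808568-155808654, with values of 2.61 (18 IP and 5 SMInput reads) and 2.43 (18 and 12 reads). Here both replicates gave nearly the same ratio on the same number of IP reads, and the shared stretch was centred 38 bases before the end of the CDS.

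Mrpl17 and Mrpl47, described here after their values were seen, were significant in both replicates at different places. Mrpl47 codes for a protein near the tunnel exit. Its CDS peak of replicate 1 at chr3:32734107-32734196 in exon 2 reached 4.57 on 14 IP reads and 1 SMInput read, the highest value of any peak of these genes in that replicate. The cluster of replicate 2 at that place stood at 0.53 with 4 and 10 reads, and the peak of replicate 2 lay in exon 5 at 2.33 (7 and 5 reads). For Mrpl17, the peak of replicate 1 was in the 3′UTR at 2.50 (10 and 3 reads). The peak of replicate 2 was in the CDS at 3.43 (6 and 2 reads), and replicate 1 had 1.08 there. For these genes the call in both replicates is thus a count of genes and not a shared site.

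Mrpl10 codes for the protein that anchors the stalk of the large subunit, and it stood out for 4 peaks in replicate 1 against 0 in replicate 2. Its peaks all lay in exon 5, with 1 in the CDS at chr11:97048133-97048194 (3.08) and 3 in the 3′UTR at 3.22, 3.01 and 3.08. The deepest of them, at chr11:97048500-97048587, held 19 IP and 4 SMInput reads. Replicate 2 had no cluster at any of these 4 places.

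Among the genes significant in one replicate alone, the highest values again came from single SMInput reads. Mrpl16 reached 4.66 in replicate 2 in its CDS at chr19:11774347-11774427, on 7 IP reads and 1 SMInput read, and replicate 1 had no cluster there. Mrpl11, a protein of the stalk base, reached 4.46 in replicate 1 at chr19:4964682-4964792 with 13 reads and 1 read. Replicate 2 gave 2.11 there on 6 and 5 reads, past the fold threshold but not that for the P value.

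In the small subunit, 3 of 25 genes were significant in replicate 1 (12.0%, 4.17% to 29.96%) and 15 of 25 in replicate 2 (60.0%, 40.7% to 76.6%). The first share lay below the 40.8% of all genes and the second at their 62.8%. The large subunit had the higher share in replicate 1 and the small subunit in replicate 2, so the data give no order between the subunits that holds in both replicates. The 3 genes of replicate 1, Mrps2, Mrps6 and Mrps28, were all significant in replicate 2 too.

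Mrps2 codes for a small subunit protein with a bacterial relative. It had 5 peaks in replicate 1 and 2 in replicate 2, all of them in exon 4. In replicate 1, 2 peaks in the CDS (3.57 and 3.93) were followed by 3 in the 3′UTR (2.50, 4.08 and 3.76), and in replicate 2 both peaks were in the 3′UTR (2.00 and 3.24). The overlapping peaks lay at chr2:28470241-28470288 with 10 IP and 3 SMInput reads in replicate 1, and at chr2:28470250-28470365 with 21 and 8 reads in replicate 2. Their shared stretch was centred 264 bases past the CDS. Mrps2 was the only gene of the 78 with several significant peaks in its own exons in both replicates. The replicate 2 peak at 2.00 only just reached the threshold, on 10 IP and 9 SMInput reads. With a Benjamini-Hochberg adjusted P of at most 0.05, Mrps2 stayed significant in both replicates. Its overlap was then lost, while Mrpl4, Mrpl20 and Mrps6 kept theirs.

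Mrps6, another protein with a bacterial relative, had the most peaks over both replicates, 4 and 7, and the first of its overlapping pairs was the deepest of the 5. That pair lay at chr16:92080861-92080940 (2.68, 34 IP and 9 SMInput reads) and chr16:92080860-92080934 (3.43, 24 and 8 reads). The second pair lay at chr16:92080949-92081009 (2.28, 20 and 7 reads) and chr16:92080952-92080996 (2.68, 16 and 9 reads). Both pairs are in intron 1 of Mrps6, and at the same time in the 3′UTR of Slc5a3, the sodium/myo-inositol cotransporter gene, which lies inside the span of Mrps6 on the same strand at chr16:92058322-92087473.

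Clusters in that stretch cannot be told apart by gene. Exons of Slc5a3 held 32 of the 76 clusters in the span of Mrps6 in replicate 1, with 3 of the 4 peaks, and 21 of 56 in replicate 2, with 5 of the 7 peaks. The exons of Mrps6 itself held 2 clusters with 0 peaks in replicate 1 and 6 clusters with 1 peak in replicate 2. That peak lay in the 3′UTR at chr16:92111952-92112045 with 2.59 (10 and 6 reads), and replicate 1 gave 0.44 there. Like all other peaks of Mrps6, it also lay in an intron of Gm49711, a further protein-coding gene. All 76 and 56 clusters of Mrps6 also lie in another gene, so leaving such clusters out removes Mrps6 as a whole. The genes with overlapping peaks are then the remaining 3, and those significant in both replicates are 6.

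**Figure D3:**
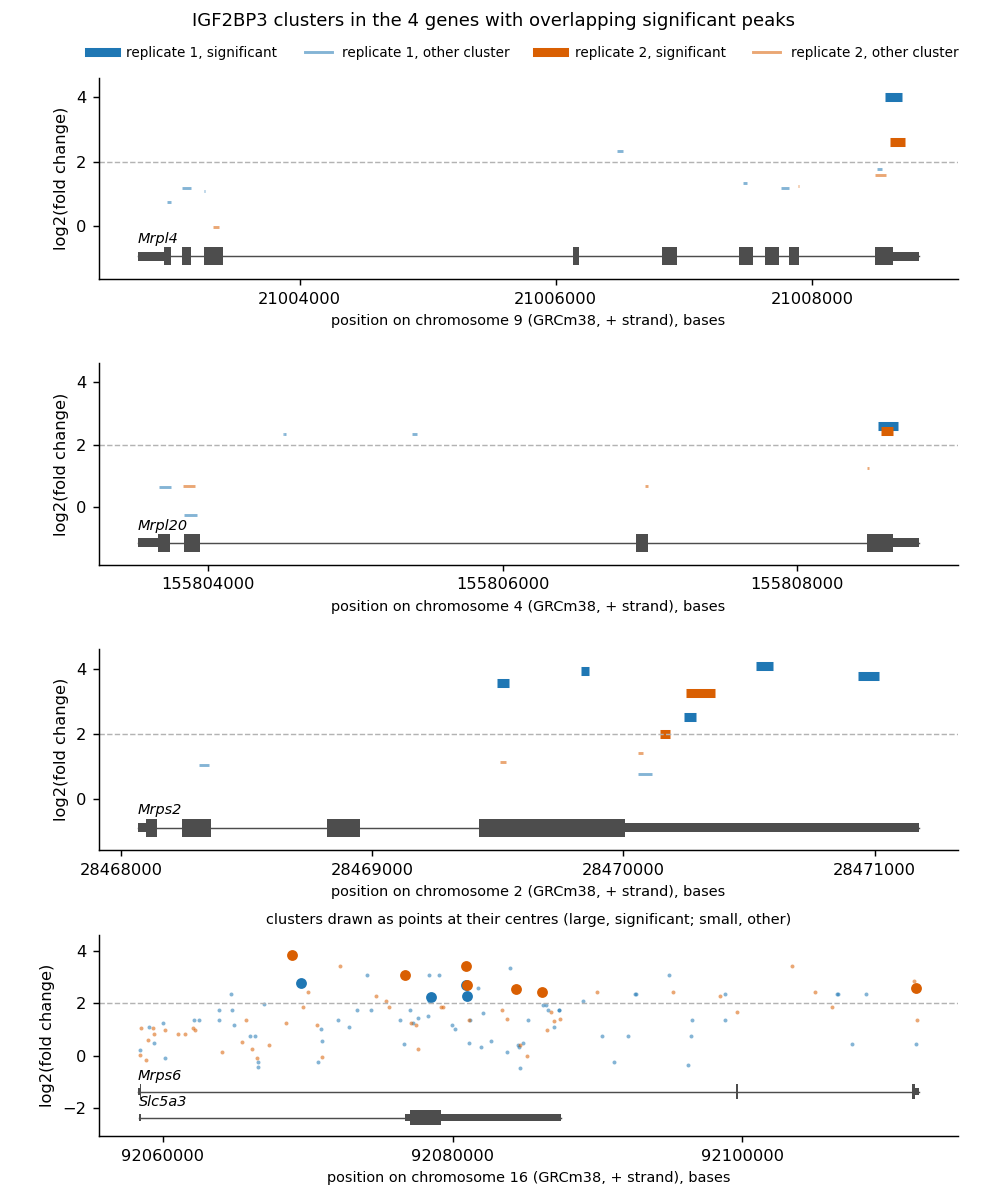
Clusters of both replicates along Mrpl4, Mrpl20, Mrps2 and Mrps6, with position on the chromosome in bases (GRCm38) on the horizontal axis and log2(fold change) on the vertical axis; blue is replicate 1, orange replicate 2, thick bars or large points are significant peaks, and the dashed line marks the threshold of 2. Gene models are drawn beneath (tall boxes CDS, low boxes UTR, thin lines introns), and the overlapping peaks of Mrps6 lie over the last exon of Slc5a3.

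Mrps28 had 4 peaks in each replicate, all 8 of them in intron 2. Its span of 121773 bases is the longest of the 78 genes, and it held 57 clusters in replicate 1 and 36 in replicate 2. The peaks had values from 2.76 to 3.93 in replicate 1 and from 2.43 to 4.66 in replicate 2, on 5 to 9 IP reads, and no peak of one replicate overlapped a peak of the other. Mrps27, a mitochondria-specific protein with pentatricopeptide repeats, had 4 peaks in replicate 2, also in introns, and 0 in replicate 1.

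Of the small subunit genes significant in replicate 2 alone, Mrps5 reached 4.43 in its 3′UTR at chr2:127605958-127606080 on 6 IP reads and 1 SMInput read. Mrps25 reached 4.17 in its 3′UTR at chr6:92174312-92174382, and Mrps9 reached 4.17 in intron 5, each on 5 reads and 1 read. Replicate 1 had no cluster at any of these places. The deepest peak of replicate 2 by IP reads belonged to Mrpl24 of the large subunit, named here after its values were seen. It lay in the 5′UTR with 26 IP and 22 SMInput reads (2.09), where replicate 1 had 29 and 30 reads and a log2(fold change) of 0.71.

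The genes with the most clusters but no significant peak in either replicate came next. Over the whole gene, introns included, Mrps18a had 13 clusters in replicate 1 and 6 in replicate 2, Mrpl13 had 15 and 3, Mrpl38 had 8 and 10, Mrpl48 had 11 and 7, and Mrps10 had 9 and 5. In exons, Mrpl38 had 8 and 10 clusters, while Mrps18a had 4 and 4, Mrpl13 5 and 3, Mrpl48 4 and 4, and Mrps10 1 and 2. The highest log2(fold change) of Mrpl38 was 1.93 in replicate 1 and 1.70 in replicate 2, below the threshold in both. Mrpl48 and Mrps10 each reached 2.76 in replicate 1 on 4 IP reads and 1 SMInput read, and 3.43 in replicate 2 on 3 IP reads and 1 SMInput read, with a −log10(P value) under 2 in all 4 cases. Ratios past the fold threshold on so few reads thus did not always count as peaks. In replicate 2, however, 12 peaks passed on 4 IP reads and 1 SMInput read. No peak does not mean no binding.

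The 45 proteins listed here as having a bacterial homologue and the other 33, here called specific to mitochondria, were set side by side. Mrps36, Mrps18a and Mrps18b are counted among the 33, whereas Mrps18c is counted among the 45. Among the first, 12 of 45 genes were significant in replicate 1 (26.7%) and 22 of 41 in replicate 2 (53.7%). Among the second, 4 of 31 (12.9%) and 9 of 29 (31.0%) were significant. All 4 shares lay below those of all genes (40.8% and 62.8%), although the interval of the first kind in replicate 2, 38.7% to 67.9%, and in replicate 1, 16.0% to 41.0%, included the share of all genes. All 7 genes significant in both replicates have a bacterial homologue, out of 41 such genes with clusters in both (17.1%), while 0 of the 28 mitochondria-specific genes were, against 39.1% of all genes. The order was the same in both replicates, but the intervals of both kinds overlap in each replicate, and the difference was not tested.

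Position within the gene was counted next. In replicate 1, 11 of the 30 peaks were in a 3′UTR (36.7%, 21.9% to 54.5%), 7 in the CDS (23.3%) and 12 in introns (40%), where all peaks of protein-coding genes had 44.8%, 29.6% and 24.9%. In replicate 2, 11 of the 53 peaks were in a 3′UTR (20.8%, 12.0% to 33.5%), 17 in the CDS (32.1%) and 23 in introns (43.4%), where all peaks had 38.0%, 21.2% and 40.2%. The 3′UTR share was below that of all peaks in both replicates, beyond the interval in replicate 2, and the CDS share changed sides. With both thresholds at 3, which leaves 10 and 7 peaks, the 3′UTR share was 60.0% and 42.9%, against 54.1% and 57.6% of all peaks. With at least 10 IP reads, which leaves 18 and 14 peaks, it was 55.6% and 35.7%, against 53.0% and 61.1%. The intron share was then 16.7% and 21.4%, against 11.5% and 6.94% of all peaks. In both replicates, every intron peak left by that choice was in Mrps6 and lay in an exon of Slc5a3. The intron shares include the exons of Slc5a3 inside Mrps6, which held 3 of the 12 intron peaks of replicate 1 and 5 of the 23 of replicate 2. Without clusters that also lie in another gene, introns held 30.8% of 26 peaks (16.5% to 49.99%) and 34.1% of 44 (21.9% to 48.9%), where all peaks had 23.1% and 38.9%.

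The 3′UTR remained the region where a cluster most often passed. In replicate 1, 11 of 71 clusters in 3′UTRs of these genes were significant (15.5%, 8.88% to 25.7%), beside 7 of 219 in the CDS (3.20%) and 12 of 370 in introns (3.24%). In replicate 2 it was 11 of 48 in 3′UTRs (22.9%, 13.3% to 36.5%), 17 of 173 in the CDS (9.83%) and 23 of 170 in introns (13.5%). The same order of 3′UTR over CDS was seen over all genes, with 19.4% and 5.29% in replicate 1 and 34.4% and 7.97% in replicate 2. Introns over all genes had 2.05% and 10.9%, below the 3.24% and 13.5% of these genes. Both values lay inside the intervals of these genes, 1.86% to 5.58% and 9.19% to 19.5%.

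Relative to annotated length, the CDS of these mRNAs was dense in clusters and the 3′UTR sparse. Lengths are those of a single annotated transcript per gene. Some of its 3′UTRs are long, with 6654 bases in Mrpl17 and 5500 in Mrps25, beside the median of 326.5. Whether the testis uses these long ends was not tested. In replicate 1 there were 440.2 clusters per 100 kb of CDS against 339 over all genes, and 83.1 per 100 kb of 3′UTR against 187. In replicate 2 the figures were 372 against 301 in the CDS and 58.8 against 168 in the 3′UTR. Significant peaks per 100 kb of 3′UTR numbered 12.9 against 36.4 in replicate 1 and 13.5 against 57.9 in replicate 2. Those per 100 kb of CDS changed sides, with 14.1 against 17.9 in replicate 1 and 36.5 against 24.0 in replicate 2.

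Short motifs were counted in the 100 bases around each peak centre, on the strand of the peak. GAACA and AAACC are sequences the study names, GGACT is the core of the m6A consensus, and CACA and GGC were added as further short motifs. In 3′UTR peaks, GAACA was present in 4 of 11 windows in replicate 1 (36.4%, 15.2% to 64.6%) and in 2 of 11 in replicate 2 (18.2%, 5.14% to 47.7%). All significant 3′UTR peaks had it in 8.30% and 7.76%, and all other 3′UTR clusters in 8.45% and 7.84%. Of the 6 windows of these genes with GAACA, 3 were in Mrps2. AAACC was present in 0 of 11 windows of 3′UTR peaks in replicate 1 and in 2 of 11 in replicate 2 (18.2%), against 8.72% and 8.45% of all significant 3′UTR peaks. In CDS peaks, GAACA and AAACC were each found in 0 of 7 windows in replicate 1 and 0 of 17 in replicate 2, against 10.4% and 9.69% of all significant CDS peaks in replicate 1 and 10.6% and 8.47% in replicate 2. Counts this small allow up to 35.4% and 18.4% by the Wilson interval.

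The m6A core GGACT was present in 1 of 11 windows of 3′UTR peaks in each replicate (9.09%), beside 10.4% and 9.78% of all significant 3′UTR peaks. In CDS peaks it was present in 2 of 7 windows in replicate 1 and 2 of 17 in replicate 2 (28.6% and 11.8%, against 10.1% and 9.10% of all). CACA was present in 4 and 3 of 11 windows of 3′UTR peaks, near the 38.3% and 35.9% of all, and in 2 of 7 and 8 of 17 windows of CDS peaks (28.6% and 47.1%, against 39.4% and 37.9% of all). GGC was found in 9 and 7 of 11 windows of 3′UTR peaks (81.8% and 63.6%, against 65.8% and 64.6% of all). In CDS peaks it was found in 6 of 7 and 16 of 17 windows (85.7% and 94.1%, against 72.6% and 71.2% of all). It was common in the other CDS clusters of these genes as well, at 83.5% in replicate 1 and 85.9% in replicate 2.

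The sequences under the 5 overlapping pairs are shown because these are the only sites of the 78 genes that were significant in both replicates. They are read from GRCm38 on the + strand, 5′ to 3′, in lower case, with any of the counted motifs in capitals. Those in a 3′UTR are the middle 30 bases of the shared stretch, and that of Mrpl20 is the coding part of its shared stretch, 82 bases long. The sites lie at chr16:92080883-92080912 and chr16:92080959-92080988 (Mrps6 intron, Slc5a3 3′UTR), chr9:21008646-21008675 (Mrpl4), chr2:28470254-28470283 (Mrps2) and chr4:155808568-155808649 (Mrpl20).
Mrps6 with Slc5a3, first pair: cttgtttgcaGGCgatggacgtcatgagtc
Mrps6 with Slc5a3, second pair: tctggagggtttctgagGGACTgagtctgg
Mrpl4: cctggtcacctagggacctgccccacttgg
Mrps2: tagccaagtttccgcttttcagttaaaatt
Mrpl20: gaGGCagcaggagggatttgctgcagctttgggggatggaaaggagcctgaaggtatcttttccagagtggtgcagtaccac

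The printed bases have no counted motif in common. GGACT is present in the second Mrps6 and Slc5a3 site, GGC in the first and in Mrpl20, and the printed bases of Mrpl4 and Mrps2 hold none of the 5 motifs, although their 100-base windows hold GGC, with GAACA in that of Mrps2 as well. GGC is present in 4 of the 5 windows, the second Mrps6 and Slc5a3 site being the exception. The share of G and C ranges from 33.3% in Mrps2 to 66.7% in Mrpl4. A match is a description of these letters and no measure of binding.

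Other protein complexes encoded largely by short mRNAs were described in the same way. Among cytoplasmic ribosomal protein genes, 18 of 81 were significant in replicate 1 (22.2%) and 25 of 81 in replicate 2 (30.9%), and 9 were significant in both (11.1%), against 40.8%, 62.8% and 39.1% of all genes. Their median highest log2(fold change) was 1.76 and 1.77, below the 2.699 and 2.59 of the mitochondrial set. Among subunits of oxidative phosphorylation, 30 of 81 were significant in replicate 1 (37.0%) and 39 of 79 in replicate 2 (49.4%), with 23 of 78 in both (29.5%). The mitochondrial ribosomal protein genes thus lay near the cytoplasmic ones in the share significant in both replicates (10.1% and 11.1%) and below the oxidative phosphorylation genes (29.5%), a difference that was not tested.

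Other genes of mitochondrial gene expression, 64 in all, were counted by role. Over the whole list, 11 of 63 were significant in replicate 1 (17.5%), 31 of 57 in replicate 2 (54.4%, 41.6% to 66.6%) and 8 in both (14.0%), against 40.8%, 62.8% and 39.1% of all genes. The share of replicate 2 thus lay near that of all genes. The counts by role rest on few genes each. Of the 5 mitoribosomal proteins outside the naming pattern, 2 and 3 were significant, and Ptcd3, a small subunit protein with pentatricopeptide repeats, was significant in both, in the CDS at 2.50 and in an intron at 3.85. Translation factors had 0 of 12 significant genes in replicate 1 and 4 of 10 in replicate 2. Aminoacyl-tRNA synthetases had 3 of 17 and 7 of 15, with Fars2, which charges the phenylalanine tRNA, significant in both through introns alone. A list of 7 genes held those of mitochondrial mRNA handling and membrane insertion together with Tfam, Polrmt and Twnk, which serve the packaging, transcription and replication of mitochondrial DNA. Of these 7, 1 and 4 were significant, with Tfam and Twnk among the 4, and Slirp, an RNA-binding partner of Lrpprc, was significant in both, in the CDS at 2.76 and 3.43.

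Assembly factors and rRNA modifying enzymes had 5 of 22 significant genes in replicate 1 (22.7%, 10.1% to 43.4%, against 40.8% of all genes). In replicate 2 it was 13 of 20 (65.0%, 43.3% to 81.9%), near the 62.8% of all genes. All 5 of replicate 1 were significant in both (25% of 20, against 39.1% of all genes). Nsun4, which methylates the rRNA of the small subunit and takes part in assembly, stood far apart from every other gene of these lists and from all 78 ribosomal protein genes. Significant peaks made up 43 of its 49 clusters in replicate 1 and 42 of 46 in replicate 2. Its highest values were 6.03 on 154 IP and 4 SMInput reads in replicate 1 and 5.99 on 88 and 5 reads in replicate 2, both in the CDS.

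The other assembly factors that were significant in both replicates are described next. Eral1, a GTPase that binds the rRNA of the small subunit, had overlapping 3′UTR peaks at 2.46 (13 IP and 4 SMInput reads) and 2.53 (8 and 5 reads), and replicate 2 had another 3′UTR peak at 2.95 (15 and 7 reads). Gtpbp10, a GTPase of large subunit assembly, had 3′UTR peaks at 3.35 and 3.07 that did not overlap. The helicase Dhx30 had its strongest peaks in the CDS at 2.93 and in the 5′UTR at 2.66, and Mterf3, a factor of large subunit assembly, in the CDS at 3.01 and in an intron at 4.43. Of these 64 genes, Nsun4 and Eral1 were the only ones with overlapping significant peaks. They are 3.51% of the 57 with clusters in both replicates, against 16.6% over all genes.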

How the data were processed

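Each of 2 replicates paired 1 IGF2BP3 IP with 1 SMInput library. The authors trimmed adapters with cutadapt, removed ribosomal RNA reads with Bowtie2, aligned to mm10 with STAR, collapsed duplicates by molecular identifiers and called clusters with Clipper. The deposited −log10 values are P values of IP against SMInput reads per cluster (chi-square or Fisher's exact test, 0 to 400), and the deposited log2 values are the scaled read ratio.

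Clusters, 337234 in replicate 1 and 216354 in replicate 2, were joined to GENCODE M21 genes by centre and strand. Regions followed basic transcripts in the order 3′UTR, CDS, 5′UTR, non-coding exon, intron. Lengths and positions were those of the basic transcript with the longest CDS, and among equals the longest. IP and SMInput reads were recovered as the whole numbers that return both listed values, for 98.9% and 99.2% of clusters listed between 0 and 400, and the procedure was tested on simulated data. Depth classes leave out the rest. Python 3.11.15, pandas 2.3.3, SciPy 1.17.1 and pysam 0.24.0 were used, with GRCm38 sequence.

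No test was made: with 2 replicates, genes and clusters are not replicates, and lists are described beside all protein-coding genes. Members and lists were chosen with earlier results of these data known. Named genes were those with overlapping peaks, 5 each with the most peaks, the most clusters without a peak and the highest value in one replicate alone, genes with no cluster, and pathway genes significant in both. Mrpl17, Mrpl24 and Mrpl47 were added after their values were seen. Alternatives covered thresholds, gene assignment, overlap, region order, window, read number and each replicate alone.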

Additional observations from a re-analysis of the deposited data

How the results depend on the processing

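Of 127 values recomputed under other settings, 88 stayed within 1.5 times the reported count, within its interval or within the spread between replicates, and 39 did not. The count of 7 genes significant in both replicates became 2 with both thresholds at 3, 4 with at least 10 IP reads per peak and 21 by the nearest transcription start site. The 4 genes with overlapping peaks became 0 with both thresholds at 3 and 9 by the nearest start site. Each replicate alone gave 16 to 31 significant genes. Of the 72 and 108 peaks given to these genes by the nearest start site, 53 and 72 lay outside the gene or on the other strand, and 5 of the 21 genes were among the 7. By that rule, 30% of these genes with a peak or cluster so assigned in both replicates were significant in both, against 36.8% of all genes.

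The 30 peaks of replicate 1 became 10 with both thresholds at 3, 19 with a Benjamini-Hochberg adjusted P of at most 0.05, 18 within exons, 72 by the nearest start site and 18 with at least 10 IP reads. The 53 peaks of replicate 2 became 7, 30 within exons, 108 by the nearest start site and 14 with at least 10 IP reads. With both thresholds at 3, the share in 3′UTRs was 60.0% and 42.9%, and that in introns was 20% and 28.6%. The median highest log2(fold change) was 2.35 and 2.22 over exonic clusters, and 1.90 and 1.99 over clusters with at least 10 IP reads, a choice that removes the clusters in which few reads give a high ratio. For the other values the cause was not tested.

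Motif shares moved with the window. With 50 bases, GGC was found in 42.9% and 58.8% of CDS peaks, and in 36.4% and 27.3% of 3′UTR peaks. In replicate 2, CACA was 23.5% in CDS and 9.09% in 3′UTR peaks, and 3′UTR peaks had 0% for the GAACA motif, for AAACC and for GGACT. With 200 bases, GGC was 100% in 3′UTR peaks of both replicates and in CDS peaks of replicate 2, CACA in 3′UTR peaks was 72.7% and 81.8%, and AAACC in CDS peaks of replicate 2 was 29.4%. Shorter windows hold fewer bases and longer ones more, which moves such shares by construction.

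Leaving out clusters of a second gene, for overlap, regions and medians, and the overlap with at least 10 IP reads, with an adjusted P and under the other rules of gene assignment were chosen after seeing the data. Of these, only the nearest start site moved a value beyond the limits above. No paired analysis was possible because each table already sets the IP against the SMInput of its own replicate and no value comes from a test over samples. Depth limits single peaks: 12 of 30 and 39 of 53 had fewer than 10 IP reads. Over all significant peaks the shares under 10 IP reads were 29.01% and 61.9%, so this limit is not confined to these genes. Among the peaks of these genes, 13 and 18 had 1 SMInput read, so that a single further SMInput read would lower their ratio. The same share over all significant peaks is not given here, so this is not shown to be particular to these genes.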
